A study of Homo sapiens with 6 samples.

Results

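The 35 genes described here encode the machinery by which the endoplasmic reticulum (ER) folds proteins, senses misfolding and sends failed proteins for degradation. They were chosen by symbol from a list made with earlier results of these data known. All 35 were present among the 17513 genes of the deposited counts and FPKM values. By role they comprise 9 chaperones and co-chaperones, 6 oxidoreductases, 5 sensors and transcription factors, 3 translocon subunits and 12 genes of glycoprotein checking and degradation. The series design text says that the RNA came from macrophages made from the THP1 monocytic leukemia line and exposed for 48 h to conditioned medium of KYSE150, an established human esophageal squamous carcinoma line. In 3 libraries the medium donors carried shSPP1#2, a single hairpin against SPP1 (osteopontin), and in the other 3 they carried shNC. The hairpin acts in the donor cells, so SPP1 in these recipient libraries does not check it. Polyadenylated RNA was sequenced, and values per library are given in the order of replicates 1, 2 and 3.

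The sample labels name KYSE150 itself, yet 11 of 12 macrophage markers reached 1 FPKM in all 6 libraries, with medians of 164 to 189.6 FPKM. The squamous list had medians of 0 to 0.055 FPKM: 2 of its 12 genes, PERP and CSTA, reached 1 FPKM throughout, and the keratins KRT5, KRT14, KRT6A and KRT13 stayed at or below 0.04 FPKM. Of the plasma cell list, a secretory lineage rich in ER, 3 of 7 genes reached 1 FPKM (SDC1, PRDM1 and CD38), while the defining JCHAIN and TNFRSF17 stayed at or below 0.06 FPKM. Of the fibroblast list 3 of 8 did, with COL1A1 at 16.3 to 19.1 FPKM and DCN at or below 0.11 FPKM. On the first principal component of all tested genes shNC replicate 2 stood apart, at 22.5 against -10.5 to 1.63, and on the second shSPP1#2 replicate 2, at -20.3 against -0.64 to 13.8.

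As background, nascent secretory proteins enter the ER through the SEC61 channel and are folded there by HSPA5 and its co-factors, while protein disulfide isomerases pair their cysteines. When unfolded chains accumulate, HSPA5 leaves the sensors ERN1 (IRE1), ATF6 and EIF2AK3 (PERK). ERN1 then splices XBP1 mRNA, ATF6 is cleaved at the Golgi into a transcription factor, and both products raise transcription of chaperone and degradation genes. Macrophages, which secrete cytokines, proteases and complement proteins, use this system at baseline as well as under stress.

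Promoters of these genes are known for the ER stress response elements ERSE (CCAAT, then 9 bases of any kind, then CCACG) and ERSE-II (ATTGG, 1 base, CCACG), bound by ATF6 together with the CCAAT-binding factor NF-Y, and for the XBP1-bound UPRE (searched as TGACGTGG). Both strands of RefSeq windows (GRCh38.p14) from 250 bases before to 50 bases after a gene's start were searched. Of the 35 members 33 had a window, with DERL1 and DERL3 as the exceptions. ERSE letters were found in 6 of these 33 members (18.2%), namely HSPA5, HSP90B1, PDIA6, ERO1B, XBP1 and CRELD2, against 25 of all 27305 genes (0.0916%). ERSE-II letters were found in 3 members (9.09%), HYOU1, HERPUD1 and SDF2L1, against 0.0696% of all genes. UPRE letters were found in 2 members, HYOU1 and DNAJC10 (6.06%), against 0.927% of all genes. By window the shares over all 35116 were 0.0769%, 0.0541% and 0.729%. An example of each element is shown, with XBP1 as a further ERSE, to make the letters behind these counts visible. Capitals mark the fixed letters, each site is written in the element's own orientation with 6 bases on either side, and HERPUD1 was taken as the ERSE-II example after its values were seen.
HSPA5 (ERSE), chr9:125241391-125241409, minus strand: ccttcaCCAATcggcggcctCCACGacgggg
XBP1 (ERSE), chr22:28800603-28800621, minus strand: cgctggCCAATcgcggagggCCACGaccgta
HERPUD1 (ERSE-II), chr16:56932025-56932035, plus strand: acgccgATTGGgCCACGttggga
DNAJC10 (UPRE), chr2:182716132-182716139, minus strand: ttaggtTGACGTGGcggtgt
HYOU1 held 2 ERSE-II matches, of which the one 185 bases before its start overlaps the UPRE match. The 9 members with either ERSE form had log2 fold changes (shSPP1#2 minus shNC medium) from -0.053 to 0.041, with a median of 0.014. The 24 members with a window and neither form had log2 fold changes from -0.065 to 0.15, with a median of 0.010. A match is a description of the letters in this window, not of a bound site. Because promoters of these genes were already known for these elements, the higher shares among members are no independent result.

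**Figure D1:**
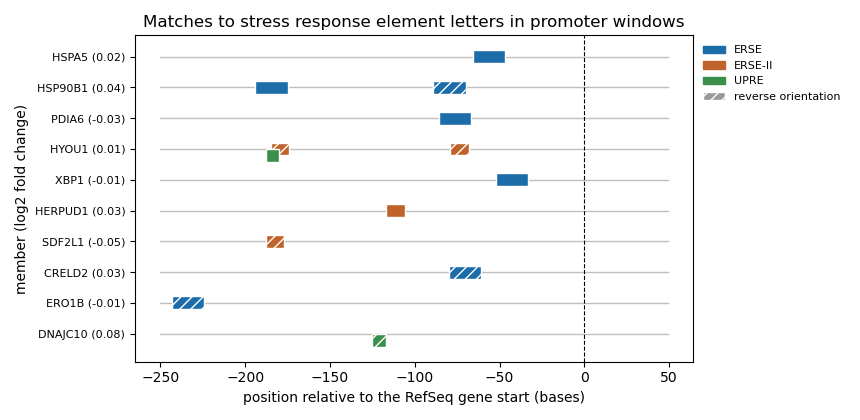
Matches to the ERSE, ERSE-II and UPRE letters (bars, to scale) in RefSeq promoter windows of 10 members, by distance in bases from the gene start (dashed line), with the log2 fold change (shSPP1#2 minus shNC medium) beside each name; hatching marks the reverse orientation. ERSE bars of HSPA5, PDIA6, XBP1 and CRELD2 lie within 100 bases before the start, as does the HSP90B1 bar at -89 to -71. HSP90B1 has another ERSE at -194 to -176. The log2 fold changes of the 9 members with an ERSE form run from -0.05 to 0.04.

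The ER machinery was abundant in these macrophages. Summed over the 35 members, FPKM was 3689, 3755 and 3484 in the shSPP1#2 libraries, against 3656, 3524 and 3598 in the shNC libraries. The means were 3643 ± 141 and 3593 ± 65.9 FPKM (SD, n = 3 each), and the members took 0.989% to 1.06% of all estimated counts in a library. The groups overlapped: shSPP1#2 replicate 3 had the lowest sum of all 6 libraries and shSPP1#2 replicate 2 the highest. In bulk RNA of this kind, fewer cells of a type and less RNA per cell cannot be told apart. Chaperones held 43.1% of the summed FPKM, oxidoreductases 26.2%, the translocon 12.9%, checking and degradation genes 11.7%, and sensors and factors 6.16%.

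Levels of single members, compared per length in FPKM, spanned from HSPA5 (698 to 778 FPKM over the 6 libraries) to DERL3 (1.85 to 2.55 FPKM). HSPA5, P4HB (595 to 682), HSP90B1 (370 to 407), PDIA6 (205 to 222) and SEC61A1 (163 to 174) led in that order, and the ranges of neighbours in this order did not overlap. Next came SEC61B, SEC61G and MANF, whose ranges overlapped from one to the next. XBP1 (103 to 114 FPKM) stood 10th of the 35. The stress sensors themselves lay lower: ERN1 measured 5.90 to 6.47 FPKM and ATF6 27.2 to 32.3 FPKM. Paralogs differed in level. DERL1 (58.6 to 62.6 FPKM) exceeded DERL2 (5.43 to 6.02 FPKM) and DERL3. EDEM1 (30.9 to 35.9 FPKM) exceeded EDEM3 (22.9 to 28.9 FPKM) and EDEM2 (7.11 to 10.8 FPKM), and ATF6B (58.6 to 62.7 FPKM) exceeded ATF6. DERL3 is uncertain, as 77.0% of its exonic bases in GENCODE v29 are also exons of SMARCB1 on the other strand, and whether counting used strand is not stated.

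**Figure D2:**
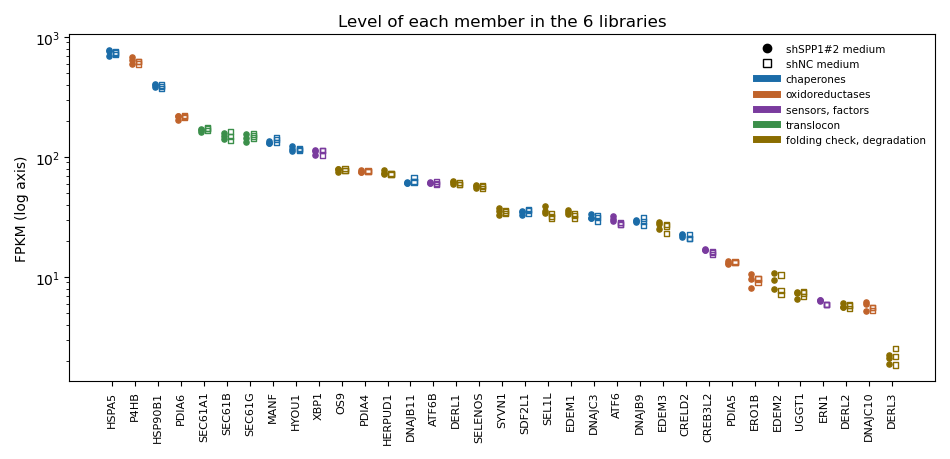
FPKM (log axis) of each of the 35 members in the 3 shSPP1#2 medium libraries (filled circles) and the 3 shNC medium libraries (open squares), ordered by mean level and colored by role. HSPA5 leads at 698 to 778 FPKM, DERL3 is lowest at 1.85 to 2.55 FPKM, and the symbols of both groups lie close together for nearly every gene.

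No member differed between the media at the threshold of an edgeR quasi-likelihood adjusted p below 0.05, with adjustment over all 13555 tested genes. All 35 members passed the filter on low counts. Of all tested genes 0 (0%) were called, and the smallest adjusted p among members was 0.615, for SEL1L. DESeq2 and limma on log2(FPKM + 1) also called 0 members. At an unadjusted edgeR p below 0.05 there were 4 members, all higher in shSPP1#2 medium: the sensors ATF6 and ERN1 and the degradation genes SEL1L and EDEM1. That is 4 of 35 (11.4%), against 6.85% of all tested genes in either direction, 3.45% higher and 3.39% lower. Log2 CPM values of the groups did not overlap for 5 members (14.3%), 4 higher and 1 lower, against 11.1% of all tested genes (5.63% higher and 5.5% lower). Over all 35 members 22 had a positive log2 fold change (49.9% of all tested genes did), and the median was 0.011, against -0.00030 over all tested genes. The 95% interval lay within 0.25 of 0 for 33 members, the others being EDEM2 and DERL3.

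**Figure D3:**
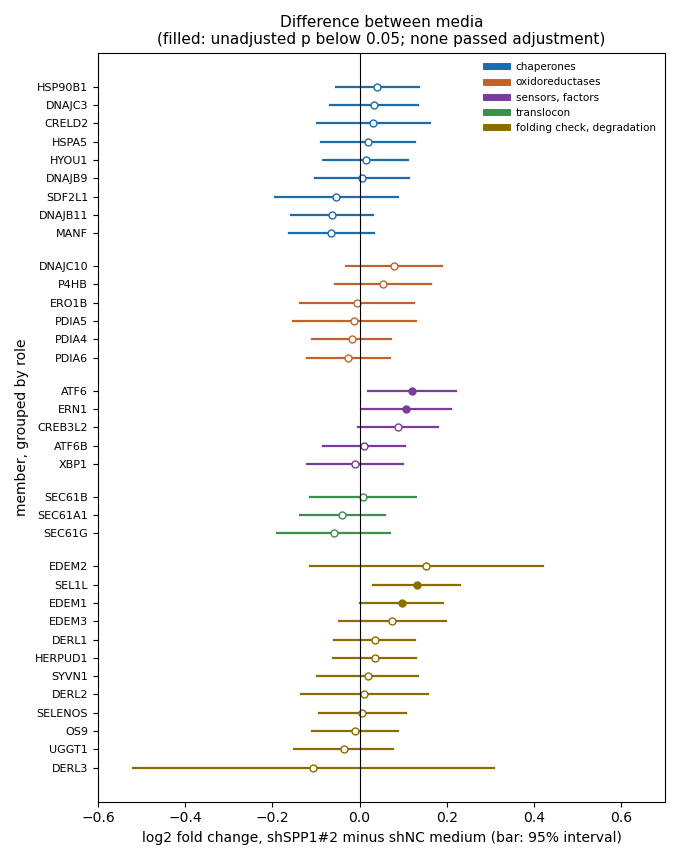
Log2 fold change (shSPP1#2 minus shNC medium, edgeR) of the 35 members with 95% intervals, grouped by role; filled points have an unadjusted p below 0.05, and none passed after adjustment over all tested genes. Filled points are ATF6, ERN1, SEL1L and EDEM1 at 0.096 to 0.13, while chaperones lie between -0.065 and 0.041.

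The ER chaperones showed no difference that passed the test, and 0 of 9 reached an unadjusted p below 0.05. HSPA5 (BiP), the Hsp70 chaperone of the ER, had 760, 778 and 698 FPKM in shSPP1#2 medium and 736, 714 and 749 FPKM in shNC medium. Both the highest and the lowest of these values belonged to shSPP1#2 medium, so the groups overlapped throughout. The log2 fold change of HSPA5 was 0.020 (SE 0.052, 95% interval -0.088 to 0.13), or -5.94% to 9.27% (edgeR adjusted p = 0.971). DNAJB11, a J-domain co-chaperone of HSPA5, had 61.2, 61.0 and 62.2 FPKM in shSPP1#2 medium and 67.1, 62.7 and 61.9 FPKM in shNC medium. It was the single member whose log2 CPM lay lower in all 3 shSPP1#2 libraries than in all 3 shNC libraries, although its FPKM values overlapped by a narrow margin (log2 fold change -0.062, 95% interval -0.16 to 0.032, edgeR adjusted p = 0.864). MANF, a small secreted protein that binds HSPA5, had 132, 136 and 130.4 FPKM in shSPP1#2 medium and 145, 131 and 139 FPKM in shNC medium (log2 fold change -0.065, 95% interval -0.16 to 0.033, edgeR adjusted p = 0.864). shNC replicate 1 was the highest of the 6 libraries for both DNAJB11 and MANF.

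Log2 fold changes of the other 6 chaperones lay between -0.053 and 0.041. HSP90B1, the Hsp90 of the ER, had a log2 fold change of 0.041 and HYOU1, which exchanges nucleotide on HSPA5, one of 0.014. DNAJC3 and DNAJB9, both J-domain co-chaperones, measured 0.032 and 0.0047. CRELD2, a stress-induced ER protein, measured 0.031, and SDF2L1, a partner of DNAJB11, measured -0.053. The arm had 6 positive and 3 negative log2 fold changes with a median of 0.014, and all 9 intervals lay within 0.25 of 0. With its 150 bases before the start printed here for the spacing of its CCAAT and CCACG letters (capitals, either strand), HSPA5 held 2 CCAAT boxes and 1 CCACG. Of all windows 34.6% hold a CCAAT and 38.1% a CCACG on either strand.
HSPA5, chr9:125241344-125241493, minus strand: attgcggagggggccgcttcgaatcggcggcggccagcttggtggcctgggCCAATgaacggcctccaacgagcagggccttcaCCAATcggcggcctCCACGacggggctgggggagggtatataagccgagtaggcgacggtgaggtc
The second CCAAT box and the CCACG form the ERSE given above.

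Oxidoreductases likewise gave 0 of 6 members at an unadjusted p below 0.05, and the groups overlapped for all 6. P4HB, the founding protein disulfide isomerase, had 640.2, 682 and 597 FPKM in shSPP1#2 medium and 627, 595 and 620.0 FPKM in shNC medium. shSPP1#2 replicate 2 was the highest and shSPP1#2 replicate 3 lay just above the lowest, shNC replicate 2. The log2 fold change was 0.054 with a 95% interval from -0.056 to 0.16 (edgeR adjusted p = 0.898). DNAJC10, a J-domain reductase that opens disulfides of proteins bound for degradation, had 5.98, 5.20 and 6.13 FPKM in shSPP1#2 medium and 5.54, 5.23 and 5.56 FPKM in shNC medium. Its shSPP1#2 libraries thus included the lowest as well as both highest values (log2 fold change 0.078, 95% interval -0.032 to 0.19, edgeR adjusted p = 0.840). It was 0.14 without shSPP1#2 replicate 2, 0.043 without shSPP1#2 replicate 3, and 0.00078 with the dependence on transcript length and GC content removed. The isomerases PDIA4, PDIA5 and PDIA6 had log2 fold changes of -0.018, -0.012 and -0.026, and the oxidase ERO1B one of -0.0052. The arm's median was -0.0086.

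Sensors and transcription factors contained 2 of the 4 members with an unadjusted p below 0.05. ATF6, the membrane-bound sensor that is cleaved into a transcription factor, had 32.3, 30.3 and 29.3 FPKM in shSPP1#2 medium and 28.2, 27.2 and 27.7 FPKM in shNC medium. All 3 shSPP1#2 values in FPKM lay above the shNC values, while in log2 CPM shSPP1#2 replicate 3 and shNC replicate 1 were level at 7.22. The log2 fold change was 0.12 (SE 0.048, 95% interval 0.018 to 0.22), or 8.61%, with an unadjusted p of 0.0229 and an edgeR adjusted p of 0.633. ERN1 (IRE1), the kinase and RNase that splices XBP1 mRNA, had 6.39, 6.33 and 6.47 FPKM in shSPP1#2 medium and 5.93, 5.94 and 5.90 FPKM in shNC medium. The groups did not overlap, with means of 6.40 and 5.92 FPKM and SDs, of 3 values each, of 0.070 and 0.021 FPKM. The log2 fold change of ERN1 was 0.11 (SE 0.049, 95% interval 0.0031 to 0.21), with an unadjusted p of 0.0441 and an edgeR adjusted p of 0.714. Under other tests its unadjusted p was not below 0.05: 0.116 in DESeq2 and 0.127 in limma on log2(FPKM + 1). ATF6 lies on chromosome 1, 161766294 to 161964070, plus strand, and ERN1 on chromosome 17, 64039142 to 64130819, minus strand (GENCODE v29, GRCh38), and neither shares exonic bases with another gene there.

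XBP1, the target of ERN1, overlapped between the groups. It had 114, 113 and 103 FPKM in shSPP1#2 medium and 114, 114 and 104 FPKM in shNC medium. Replicate 3 was the lowest in both groups, and the means of 110.0 ± 5.86 and 110.5 ± 5.84 FPKM (SD, n = 3 each) differed by less than the spread (log2 fold change -0.011, 95% interval -0.12 to 0.099, edgeR adjusted p = 0.986). These counts are per gene and sum over transcripts, so ERN1 activity is not read from them. In GENCODE v29, XBP1-207 lacks 26 bases that XBP1-201 holds, annotated as an intron at chr22:28796124-28796149 on the minus strand; XBP1-202 has the same gap placed 2 bases further on. The block is printed as DNA in capitals with 15 bases on either side, because its loss is what distinguishes the spliced message.
XBP1-201: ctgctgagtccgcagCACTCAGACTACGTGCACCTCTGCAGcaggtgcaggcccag
CREB3L2, another membrane-bound factor released by cleavage at the Golgi, measured 16.7, 16.7 and 17.1 FPKM in shSPP1#2 medium and 15.5, 15.9 and 16.4 FPKM in shNC medium. The groups did not overlap, and the log2 fold change of 0.087 had an interval from -0.0048 to 0.18 (edgeR adjusted p = 0.746). ATF6B, a paralog of ATF6, had a log2 fold change of 0.0094. The arm's median was 0.087, and 4 of 5 values were positive.

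**Figure D4:**
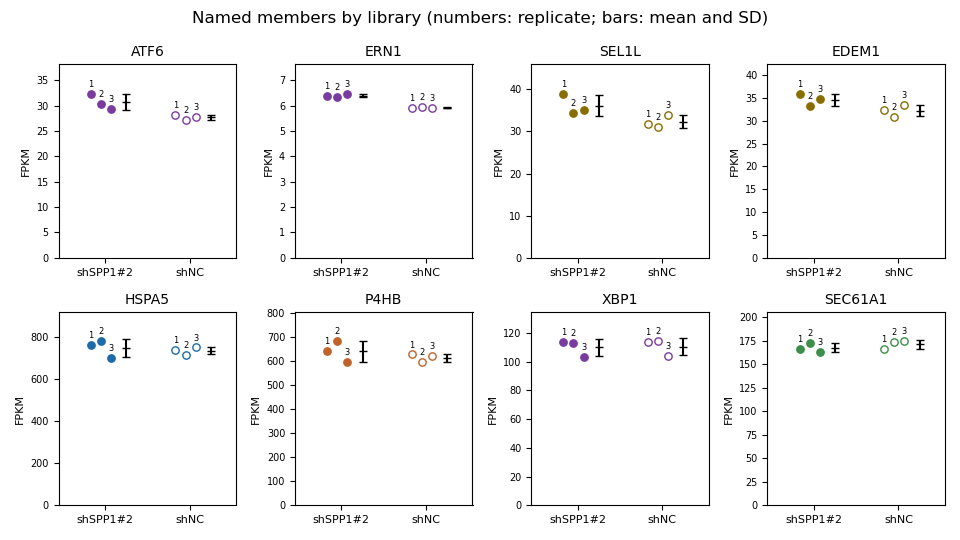
FPKM per library (points, numbered by replicate) with mean and SD (bars, n = 3 each) for 8 members in shSPP1#2 medium (filled, left) and shNC medium (open, right); every axis starts at 0. ERN1 at 6.33 to 6.47 against 5.90 to 5.94 FPKM and ATF6 at 29.3 to 32.3 against 27.2 to 28.2 FPKM do not overlap, whereas HSPA5, P4HB, XBP1 and SEC61A1 overlap.

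The translocon gave 0 of 3 members at an unadjusted p below 0.05, and the groups overlapped for all 3. SEC61A1, the channel subunit, had 167, 172 and 163 FPKM in shSPP1#2 medium and 166, 174 and 174 FPKM in shNC medium (log2 fold change -0.040, 95% interval -0.14 to 0.057, edgeR adjusted p = 0.917). SEC61G, a small tail-anchored subunit, had 145, 156 and 132 FPKM in shSPP1#2 medium and 149.7, 156 and 144 FPKM in shNC medium. shSPP1#2 replicate 3 was the lowest library for both subunits (log2 fold change of SEC61G -0.059, 95% interval -0.19 to 0.070, edgeR adjusted p = 0.904). SEC61B, the other small subunit, had a log2 fold change of 0.0076, with 137 to 162 FPKM over the 3 shNC libraries alone.

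Genes of glycoprotein checking and ER-associated degradation held the other 2 members with an unadjusted p below 0.05. SEL1L, the adaptor that links substrate receptors to the ubiquitin ligase SYVN1, had 38.9, 34.4 and 35.2 FPKM in shSPP1#2 medium and 31.9, 31.0 and 34.0 FPKM in shNC medium. All shSPP1#2 values lay above all shNC values, by a narrow margin between shSPP1#2 replicate 2 and shNC replicate 3. The log2 fold change was 0.13 (SE 0.048, 95% interval 0.032 to 0.23), or 9.52%, with an unadjusted p of 0.0127 and an edgeR adjusted p of 0.615. EDEM1, a mannosidase-like protein that marks misfolded glycoproteins, had 35.9, 33.2 and 34.7 FPKM in shSPP1#2 medium and 32.3, 30.9 and 33.5 FPKM in shNC medium. In FPKM, shNC replicate 3 exceeded shSPP1#2 replicate 2, so the groups overlapped on that scale and not in log2 CPM (log2 fold change 0.096, 95% interval 0.0019 to 0.19, unadjusted p = 0.0459, edgeR adjusted p = 0.719). SEL1L lies on chromosome 14, 81471549 to 81533861, minus strand, without exonic overlap, and EDEM1 on chromosome 3, 5187646 to 5219957, plus strand, where 9.66% of exonic bases are shared with an antisense gene (GENCODE v29, GRCh38). The promoter of SEL1L is shown beside that of HSPA5 with the same capitals; within 150 bases of the start it held 4 CCAAT boxes on either strand and 0 CCACG, although a CCACG lies in the rest of its searched window.
SEL1L, chr14:81533854-81534003, minus strand: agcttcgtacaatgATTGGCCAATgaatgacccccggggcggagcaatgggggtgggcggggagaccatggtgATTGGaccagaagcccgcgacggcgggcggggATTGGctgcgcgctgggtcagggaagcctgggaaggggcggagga

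The groups overlapped for the other genes of this arm. OS9, the lectin that hands trimmed glycoproteins to SEL1L and the most abundant member of this arm, had 79.2, 79.8 and 74.6 FPKM in shSPP1#2 medium and 77.6, 80.5 and 76.7 FPKM in shNC medium (log2 fold change -0.0096, 95% interval -0.11 to 0.089, edgeR adjusted p = 0.986). SYVN1 (HRD1), the ligase itself, had a log2 fold change of 0.019, and HERPUD1, which organizes the complex, one of 0.034. The derlins DERL1 and DERL2, membrane proteins of the exit channel, measured 0.034 and 0.011, and SELENOS, which recruits the extracting ATPase, 0.0065. EDEM3 measured 0.075 and UGGT1, the enzyme that returns glycoproteins to the lectin chaperones, -0.037. EDEM2 had the largest value of the arm, 0.15, yet it measured 7.97, 10.8 and 9.37 FPKM in shSPP1#2 medium and 7.11, 10.4 and 7.70 FPKM in shNC medium. Replicate 2 was the highest of both groups, and the interval of EDEM2 ran from -0.11 to 0.42. DERL3, at 37.5 to 52.2 estimated counts per library, had a log2 fold change of -0.11 with an interval from -0.52 to 0.31. Of the 12 members 9 had positive values, and the median was 0.026.

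Each of ATF6, ERN1, SEL1L and EDEM1 lost its unadjusted p below 0.05 when certain single libraries were left out. Without shSPP1#2 replicate 1, 0 of 35 members had an unadjusted edgeR p below 0.05, against 4.43% of all genes in that fit. The log2 fold change was then 0.084 for SEL1L, 0.076 for ATF6 and 0.070 for EDEM1, whereas that of ERN1 was 0.11 as before and only its p moved, to 0.0862. Over all 6 such fits ERN1 ranged from 0.092 to 0.12. Without shNC replicate 2, the library of lowest depth (18113591 estimated counts, against 20202142 to 20626346 in the others), 2 members had such a p, ERN1 and EDEM2 (log2 fold change 0.33), against 4.01% of all genes. The longest GENCODE v29 transcript, protein-coding where annotated, measured 7496 bases for ATF6, 7876 for ERN1, 7925 for SEL1L and 6146 for EDEM1. The median for all tested genes was 3410 bases. DNAJC10 (20129 bases) and UGGT1 (10650 bases) were longer still, with log2 fold changes of 0.078 and -0.037. Once the dependence of log2 CPM on transcript length and GC content was taken out of every library, 0 members had an unadjusted p below 0.05, against 5.38% of all genes. The log2 fold changes were then 0.080 for SEL1L, 0.080 for ERN1, 0.076 for ATF6 and 0.068 for EDEM1.

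Members also differed between libraries of the same medium. shSPP1#2 replicate 2 was the highest of the 6 libraries in log2 CPM for 13 of 35 members (37.1%), where it was highest for 15.8% of all tested genes. shSPP1#2 replicate 3 was the lowest for 15 members (42.9%), where it was lowest for 16.9% of all tested genes. In the oxidoreductase arm these were 4 of 6 members each. For HSPA5 the SD of log2 CPM was 0.098 among shSPP1#2 libraries and 0.026 among shNC libraries, and for P4HB 0.11 and 0.026. Without shSPP1#2 replicate 2 the log2 fold change of HSPA5 was -0.021, and without shSPP1#2 replicate 3 it was 0.074.

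**Figure D5:**
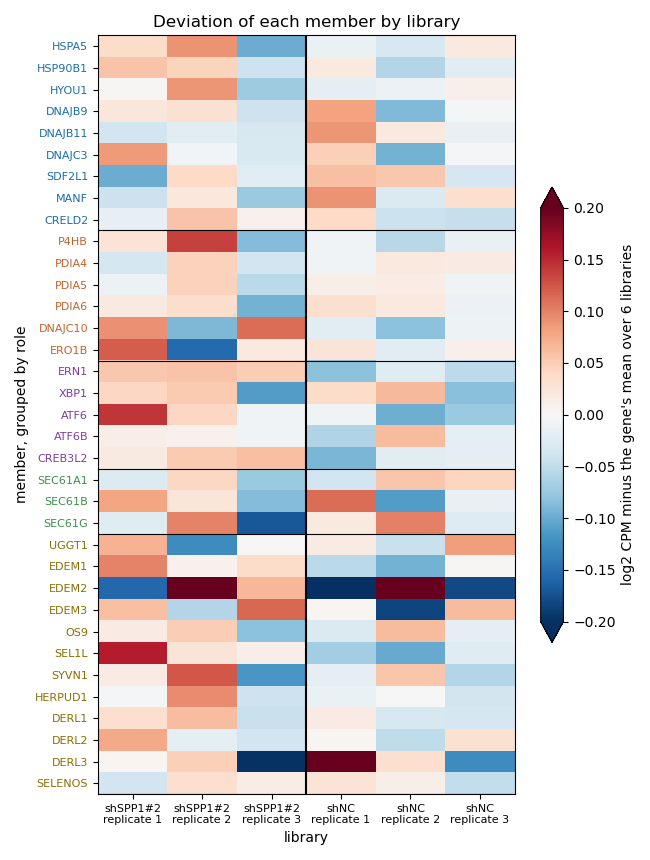
Log2 CPM of each member minus its mean over the 6 libraries (color), with shSPP1#2 medium libraries left of the line and shNC medium libraries right of it, grouped by role. The column of shSPP1#2 replicate 2 is mostly red and that of shSPP1#2 replicate 3 mostly blue, with the lowest value for 15 of 35 members, while ERN1 is red in all 3 shSPP1#2 libraries.

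Lists for the rest of the pathway were also made with earlier results of these data known. They held 104 further genes (105 symbols, of which 2 name the same gene, MARCHF6), and 99 of them were tested. None was called over all genes by edgeR, and 10 (10.1%) had an unadjusted p below 0.05, 5 higher and 5 lower, against 6.85% of all tested genes. Of 8 genes listed as the EIF2AK3 (PERK) arm, 3 (37.5%) had such a p, all higher. The median log2 fold change of the 8 was 0.027, with 6 positive and 2 negative. ATF4, the transcription factor translated when EIF2AK3 acts, had 290.0, 301 and 289 FPKM in shSPP1#2 medium and 270.5, 257 and 261 FPKM in shNC medium. CHAC1, a glutathione-degrading target of ATF4, had 12.2, 11.8 and 10.1 FPKM in shSPP1#2 medium and 9.73, 9.68 and 9.48 FPKM in shNC medium. TRIB3, a pseudokinase that ATF4 induces, was the third (log2 fold change 0.18). The groups did not overlap for ATF4 or CHAC1, with log2 fold changes of 0.15 (95% interval 0.061 to 0.24, edgeR adjusted p = 0.486) and 0.25 (0.073 to 0.43, edgeR adjusted p = 0.583). The sensor EIF2AK3 itself had a log2 fold change of -0.012, and DDIT3 (CHOP), a factor downstream of ATF4, one of 0.017. Activity of EIF2AK3 is not read from these levels and was not tested.

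Among 25 tested chaperones and oxidoreductases outside the 35, 1 had an unadjusted p below 0.05 and was higher and 2 were lower. HSPA13, an Hsp70-like ATPase of the ER, had a log2 fold change of 0.16 (95% interval 0.038 to 0.28, edgeR adjusted p = 0.615), and the thioredoxin-related TMX4 one of -0.20 (-0.37 to -0.027, edgeR adjusted p = 0.657). FKBP2, a proline isomerase, was the other lower gene (log2 fold change -0.17). Of 24 genes of translocation, signal peptide cleavage and N-glycosylation, 2 were lower at that p and 0 higher. That share, 8.33%, is near the 6.85% of all tested genes. SRPRB, a subunit of the signal recognition particle receptor, had 21.6, 22.4 and 21.6 FPKM in shSPP1#2 medium and 23.6, 25.3 and 24.0 FPKM in shNC medium (log2 fold change -0.16, 95% interval -0.27 to -0.052, edgeR adjusted p = 0.539). OST4, a small oligosaccharyltransferase subunit, had a log2 fold change of -0.17 (-0.30 to -0.044, edgeR adjusted p = 0.601). Of 30 other degradation genes, 1 was higher, the J-domain protein DNAJB14 (log2 fold change 0.14), and 1 lower, the ubiquitin ligase RNF5 (log2 fold change -0.11). These make 6.67% of that list, also near the share over all tested genes. None of 12 genes of membrane factor processing reached that p, and those of smallest p were BFAR, with a log2 fold change of 0.097, and the site-2 protease gene MBTPS2, with 0.076. With 1 library left out, several of these values moved by over 1.5 times: OST4 was -0.088, TMX4 -0.13 and DNAJB14 0.089 without shNC replicate 2, and HSPA13 0.096 and MBTPS2 0.026 without shSPP1#2 replicate 1. BFAR was 0.064 without shSPP1#2 replicate 2. TRIB3 was 0.28 without shSPP1#2 replicate 3.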

How the data were processed

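Polyadenylated RNA of 6 libraries was sequenced, grouped by the hairpin in the sample titles. No label states separate cultures for the replicates: p-values therefore reflect the spread among these samples alone, which may be technical. The authors deposited estimated counts per gene and FPKM per gene. Per the submitters' processing notes, the tools were HISAT2 2.0.4, Bowtie2 2.2.5 and RSEM, on build GRCh38.p13, without roles or order. Strand use and the lengths behind FPKM are not stated. From the deposited FPKM values, 20 lines of stray annotation text were dropped.

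Estimated counts were rounded, filtered with filterByExpr (13555 genes kept) and TMM-scaled. The edgeR quasi-likelihood test (version 4.0.16, in R 4.3.3) compared shSPP1#2 minus shNC with no block, and p was adjusted over all tested genes by Benjamini-Hochberg, at 0.05. As a check of the code, the fit was also run on counts simulated at the dispersions estimated from these data. That run is not used as evidence on the members. Log2 CPM used a prior count of 2. Total estimated counts were 18113591 to 20626346 per library, and fold changes (log2) had a median standard error of 0.065 for genes of mean log2 CPM of at least 2. Members and gene lists were chosen with earlier results of these data known. Members printed library by library are the most abundant and the 2 of smallest p in each role, with XBP1, ERN1, ATF6 and HSPA5 always. CREB3L2 and EDEM2 were added after their values were seen, as were TRIB3, EIF2AK3, DDIT3 and FKBP2 among the other pathway genes, whose lists are otherwise named by their 2 smallest p. Alternatives were RLE scaling, no low-count filter, a minimum CPM of 1 in 3 libraries, DESeq2 1.42.0, limma 3.58.1 on log2(FPKM + 1), on log2(FPKM + 0.1) and on log2(FPKM + 1) of all listed genes, a replicate block and each library left out in turn. Removal of each library's length and GC trend (mgcv 1.9.3), alone and with the replicate block, was chosen after seeing the data.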

Additional observations from a re-analysis of the deposited data

How the results depend on the processing

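Under every alternative run, 0 of the 35 members and 0 of the other pathway genes passed after adjustment over all genes. Over all genes, edgeR called 0, whereas DESeq2 called 13, edgeR with no low-count filter 18, limma on log2(FPKM + 0.1) 1, and edgeR with the length and GC trend removed 2; with single libraries left out the count ran from 1 to 10. The replicate block gave 59 calls over all genes, 0 of them members, and 6 members at an unadjusted p below 0.05, against 10.8% of all genes in that fit. With the length and GC trend also removed it gave 37 calls and 1 such member, against 7.43% of all genes. Deviations from the group means correlated at 0.073, 0.096 and 0.048 between libraries of the same number, so these were not treated as pairs. Each library correlated best with the library of its own number in the other group, which is a hint from the data and not from the design.

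The members of unadjusted p below 0.05 numbered 4, all higher, against 6.85% of all genes in either direction and 3.45% higher. They numbered 2 under limma in each of its 3 forms (6.0% to 6.49% of all genes in either direction) and 3 under DESeq2 (2.88%). With the length and GC trend removed they numbered 0 (5.38%), and with single libraries left out 0 to 4 (4.01% to 8.95%), where the shares again count both directions. Those lower stayed at 0. Members with groups apart and higher numbered 4 to 9 with single libraries left out, where fewer values must stand apart, and those lower 1 to 4, or 0 in FPKM. No share over all genes was computed for these settings, so the counts are not read as a result about the members. The median of the sensors, 0.087, was 0.059 with the length and GC trend removed and 0.058 with the replicate block added. That of checking and degradation genes ran from 0.013 to 0.052 with single libraries left out. Signs turned for members near 0: with single libraries left out HSPA5 ran from -0.021 to 0.074, P4HB from -0.0032 to 0.11, XBP1 from -0.054 to 0.043, SEC61G from -0.13 to 0.0091 and OS9 from -0.037 to 0.030. With the length and GC trend removed XBP1 was 0.0093 and OS9 0.0017, and with the replicate block added they were 0.0077 and 0.00056. Positive signs of ATF6, ERN1, SEL1L and EDEM1 held under all alternatives run. Causes were not tested. With 3 libraries a group, the median standard error of a member was 0.049 on the log2 scale, which limits the size of difference that can be told from 0.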
